A study of Mus musculus with 25 samples.

Results

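Growth factors and the receptor tyrosine kinases that read them were followed through the growth of RB-depleted pituitary tumors and after RB was restored. The members were taken by symbol from the genes measured in either experiment: the numbered fibroblast growth factors (FGF) and the genes named after their receptors, the insulin-like growth factor (IGF) genes apart from Igf2 itself, Egf, Egfr and the other ERBB receptors, the neuregulins, the VEGF, PDGF and NTRK genes, and Ret, Met, Hgf, Kit, Kitl, Pgf, Flt4 and Insr. Of 15768 genes in all, 58 are members. All 58 were measured in the long-term experiment and 50 in the short-term experiment. By role they fall into 10 FGF ligands, 5 FGF receptors, 4 genes of the IGF and insulin ligand and receptors, 7 IGF binding proteins (with Igfals counted among them), 9 ERBB receptors and their ligands, 9 VEGF and PDGF genes, 8 other receptors and ligands, and 6 genes taken in by name and set apart from these roles (Fgfr1op, Fgfr1op2, Igf2bp2, Igf2bp3, Igfbpl1 and Igflr1).

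All mice carried the same transgenes, rtTA driven by the broadly active Rosa26 promoter and a doxycycline-inducible (Tet-ON) shRNA against Rb linked to GFP at Col1a1 (shRb mice, derived from 1 ES cell clone), and all had received doxycycline (dox) in their drinking water as young adults, so that no group was free of dox exposure. In the long-term experiment (poly(A)-enriched libraries), 3 females had 6 weeks of dox (6w+dox), 2 females and 2 males had 12 weeks (12w+dox), and 3 females and 2 males had 6 weeks of dox followed by 6 weeks without it (12w-res). In the short-term experiment (rRNA-depleted libraries), 3 males had 16 weeks of dox (16w+dox), and dox was then removed for 1 day in 4 females (1d -dox), for 3 days in 3 males (3d -dox) and for 5 days in 3 females (5d -dox). The paper states that the dox water also held sucrose, which was not given once dox was removed. Among the long-term groups only 12w-res was off dox. The return of RB and the withdrawal of dox and sucrose therefore cannot be told apart in it. Each sample was the pituitary, with its tumor, of a mouse. The long-term libraries held 19066053 to 28968476 reads on genes and the short-term libraries 9573101 to 13036900. Levels are in FPM, which are read counts scaled by size factors, so that their sum differs between libraries.

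A receptor tyrosine kinase spans the cell membrane, and binding of its ligand outside the cell pairs receptor molecules, which then phosphorylate each other and feed the RAS-MAPK and PI3K-AKT cascades. The binding proteins of the IGF system hold IGF1 and IGF2 in the extracellular space and so set how much of them reaches the receptor. In the pituitary, FGF10 from the overlying brain floor drives the outgrowth of the gland in the embryo, and FGFR2 is its receptor. The endocrine cells of the adult anterior lobe lie in a dense capillary bed fed by VEGF and PDGF signals. The paper places the origin of these tumors in the intermediate part of the gland. RB holds back the E2F transcription factors, which drive the cell cycle genes.

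The targeted gene separated 12w-res from the long-term mice on dox, while 6w+dox and 12w+dox overlapped. Rb1 was at 1.86, 2.54 and 5.09 FPM at 6w+dox, at 3.45, 2.42, 2.93 and 4.05 at 12w+dox, and at 16.1, 17, 20.3, 19.2 and 18.2 in 12w-res. In the short-term mice Rb1 lay between 3.47 and 6.03 FPM with overlapping groups, while GFP, which reports the shRNA, stood at 1250 ± 192 FPM (SD, n = 3) before withdrawal, then at 606 ± 199 (n = 4), 122 ± 46 (n = 3) and 11.7 ± 3.08 (n = 3) after 1, 3 and 5 days. Pomc, the hormone precursor of melanotrophs and corticotrophs, was present in every mouse, at 93200 to 573000 FPM in the long-term groups. The libraries of each group were alike over all genes, with a mean correlation of a library with the others of its group of at least 0.96 (12 libraries) and at least 0.975 (13 libraries).

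A gene was called higher or lower at an adjusted p under 0.05 in limma and an absolute log2 fold change over 1, with the adjustment over all genes tested (15315 in the long-term and 13958 in the short-term experiment). All 58 members could be tested in the long-term experiment. In the short-term experiment 49 could, since Fgf10 did not reach 10 reads in most mice of any group. Fold changes on the log2 scale are of FPM + 0.5, which understates the change of genes with low levels.

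Across the 6 weeks from 6w+dox to 12w+dox, the calls among the members were mostly losses with size factors as the scaling, a split that library totals turned to 4 higher and 3 lower. Only Erbb3 was called higher (1.72% of members; 3.15% of all genes tested), and 8 members were called lower (13.8% of members; 4.04% of all genes), namely Fgf10, Igf2bp2, Vegfc, Igfbp5, Fgfr1, Erbb4, Erbb2 and Pdgfb. At an adjusted p under 0.05 and any fold, 5 members were higher and 15 lower, against 22.4% of all genes. The median log2 fold change was -0.21 over the members and -0.00633 over all genes (0.045 and 0.292 with library totals).

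With RB restored, the calls against 12w+dox were mostly gains with size factors and mostly losses with library totals (4 higher and 9 lower). In 12w-res against 12w+dox, 14 members were called higher (24.1% of members; 6.24% of all genes) and 2 lower (3.45% of members; 5.04% of all genes), and 20 were higher and 5 lower at any fold (37.8% of all genes passed that threshold). The median was 0.264 over the members and -0.00399 over all genes. With library totals it was -0.146 over the members and -0.606 over all genes. The 14 were Fgf1, Fgf21, Igfbp3, Igfbp7, Igfbp5, Igfbp6, Pdgfb, Flt4, Met, Pdgfc, Ntrk3, Igf1, Erbb2 and Fgfr1, and the 2 were Fgfr2 and Fgfr4. Against the state at which dox was withdrawn (12w-res against 6w+dox), 5 members were called higher (Fgf1, Fgf21, Pdgfc, Igfbp3 and Igfbp7; 8.62% of members and 5.81% of all genes) and 2 lower (Fgf10 and Fgfr2; 3.45% of members and 5.82% of all genes). At any fold, 9 were higher and 5 lower, where 33.8% of all genes passed. These 3 comparisons share mice with each other, so a gene low at 12w+dox enters both as a loss and as a gain. Where both are given in what follows, they rest on the same 12w+dox mice and are not independent results. Among females alone, 9 of 9 called members kept their direction in 12w+dox against 6w+dox, and 7 of 7 in 12w-res against 6w+dox. In 12w-res against 12w+dox, 16 of 16 did so among females alone and 16 of 16 among males alone. These members had been called with the same mice, and each sex held 2 or 3 mice per group, so the kept directions are no independent test. Since all 6w+dox mice were female, the comparisons with 6w+dox among females left out only the males of the other group.

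**Figure D1:**
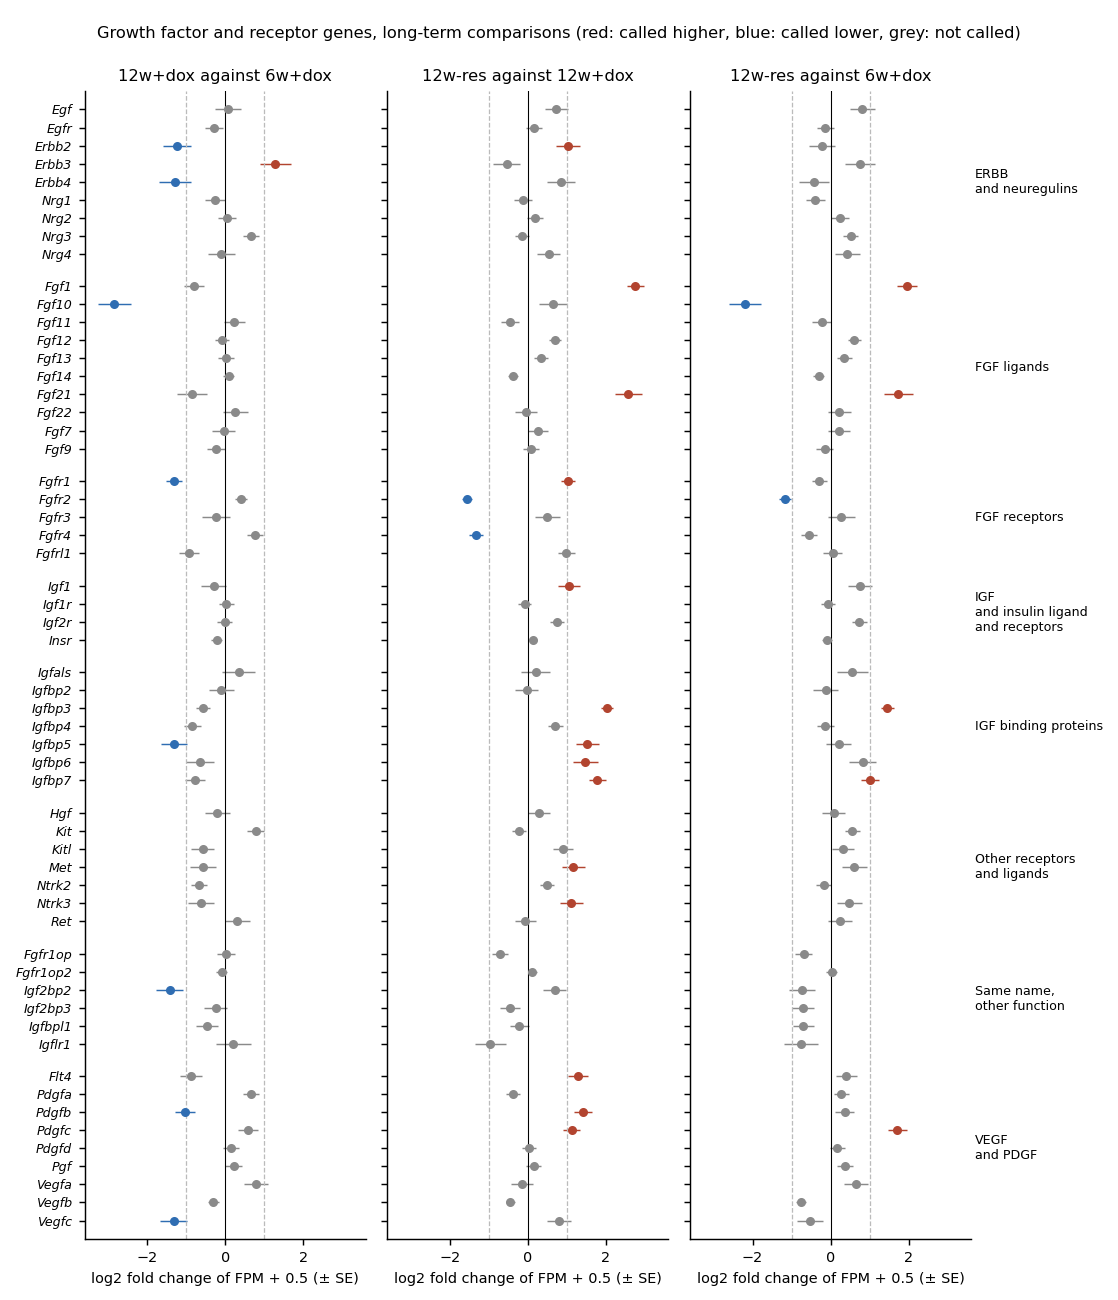
Log2 fold change of 57 of the 58 members in the 3 long-term comparisons, by role (x axis, FPM + 0.5; points with SE from limma; dashed lines at -1 and 1; red called higher, blue called lower, grey not called). In 12w+dox against 6w+dox 1 point is red and 8 are blue, in 12w-res against 12w+dox 14 are red and 2 blue, and in 12w-res against 6w+dox 5 are red and 2 blue.

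The scaling between groups matters for how these splits read. With library totals in place of size factors, the median of all genes moved to 0.292, -0.606 and -0.326 in the 3 comparisons, and that of the members to 0.045, -0.146 and -0.029. In the third comparison the members' calls became 4 higher and 4 lower. Shares of all genes called with library totals are not given here, so the member counts under that scaling have no background beside them. Pomc alone was at 142000 ± 42600 FPM (SD, n = 4) in the 12w+dox mice, against 500000 ± 44500 (n = 5) in the 12w-res mice. These values are not shares of a library, since FPM sums differ between mice. Every called member kept its sign under totals, and the members called both ways in 12w-res against 12w+dox were Fgf1, Fgf21, Igfbp3 and Igfbp7 (higher) and Fgfr2 and Fgfr4 (lower).

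Of the 6 members called in both comparisons of 12w-res, 5 are shown by the 250 bases before their start, as the RefSeq promoter table gives them on GRCm38.p6. No window is shown for the other member, Fgf1, so the 5 stand for only part of that set. For Igfbp3 the RefSeq gene span reaches further upstream, to base 7215498, so that its window lies inside that span. None of these windows overlaps a GENCODE exon. The windows are chr7:45615491-45615740 for Fgf21, chr7:130266809-130267058 for Fgfr2, chr11:7213924-7214173 for Igfbp3 and chr5:77408046-77408295 for Igfbp7, all on the minus strand, and chr3:81036166-81036415 for Pdgfc on the plus strand. Each is written 5′ to 3′ up to the base before the start, and capitals mark TATAAA, the letters of a TATA box.
Fgf21: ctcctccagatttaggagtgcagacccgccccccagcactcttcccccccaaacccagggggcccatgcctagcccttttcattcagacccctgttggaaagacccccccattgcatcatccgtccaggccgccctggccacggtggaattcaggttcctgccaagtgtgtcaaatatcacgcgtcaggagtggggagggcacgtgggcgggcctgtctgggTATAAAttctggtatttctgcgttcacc
Fgfr2: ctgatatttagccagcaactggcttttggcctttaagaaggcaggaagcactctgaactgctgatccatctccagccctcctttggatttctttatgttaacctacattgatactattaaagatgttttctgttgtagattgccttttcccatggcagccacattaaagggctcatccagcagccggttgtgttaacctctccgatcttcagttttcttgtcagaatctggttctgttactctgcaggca
Igfbp3: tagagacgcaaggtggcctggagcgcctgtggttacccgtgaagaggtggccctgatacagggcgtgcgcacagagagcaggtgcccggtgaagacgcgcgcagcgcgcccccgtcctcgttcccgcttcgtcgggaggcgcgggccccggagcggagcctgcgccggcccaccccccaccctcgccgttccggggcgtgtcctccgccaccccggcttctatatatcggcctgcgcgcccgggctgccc
Igfbp7: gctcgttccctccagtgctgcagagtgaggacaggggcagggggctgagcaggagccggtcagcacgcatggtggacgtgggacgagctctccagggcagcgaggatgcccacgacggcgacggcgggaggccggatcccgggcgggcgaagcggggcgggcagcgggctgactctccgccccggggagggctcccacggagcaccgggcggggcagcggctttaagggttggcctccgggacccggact
Pdgfc: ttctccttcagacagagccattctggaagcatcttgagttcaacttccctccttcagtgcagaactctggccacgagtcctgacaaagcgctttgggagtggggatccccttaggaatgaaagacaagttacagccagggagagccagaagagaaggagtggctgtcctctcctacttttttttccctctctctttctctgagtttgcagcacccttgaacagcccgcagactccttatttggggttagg
The windows of Igfbp3 and Igfbp7 are rich in G and C (73.2% and 74% of bases, with 32 and 26 CpG pairs), whereas those of Fgfr2 (44%, 2 CpG pairs) and Pdgfc (50.8%, 3) are not, and that of Fgf21 lies between (59.6%, 9). Letters of the E2F site (TTTGGCGC, TTTCCCGC, TTTGCCGC or TTTCGCGC, on either strand) are in none of the 5 windows. They are in 4 of the 63 windows of the 46 members that have any (6.35%, in Fgf13, Kit and Pdgfa) and in 611 of 32851 windows of all genes (1.86%), at a median content of G and C of 63.6% and 52.4%. TATAAA on either strand is in 5 of the 63 windows (7.94%) and in 12.4% of all. These matches describe letters only.

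Among the FGF ligands, Fgf10 was called lower with tumor growth, and Fgf1 and Fgf21 were called higher in 12w-res. Fgf1, an FGF without a secretion signal that binds every FGF receptor, was at 21.8, 22.3 and 24.8 FPM at 6w+dox, at 20.2, 11.4, 9.15 and 13.2 at 12w+dox, and at 57.9, 78.1, 120, 111 and 101 in 12w-res. All 5 restored mice were above all 7 others. The mean rose 6.93-fold against 12w+dox (log2 fold change 2.76 ± 0.225 SE, adjusted p = 6.51e-07) and 4.08-fold against 6w+dox (1.96 ± 0.245, adjusted p = 4.33e-05). From 6w+dox to 12w+dox Fgf1 was lower at an adjusted p of 0.0379 but under the minimum fold (log2 fold change -0.80 ± 0.256).

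Fgf21, a circulating FGF made mainly in liver under metabolic stress, was low in every mouse on dox: 1.63, 2.85 and 0.787 FPM at 6w+dox, and 0.977, 1.05, 0.77 and 0.14 at 12w+dox, which is 5 to 36 reads. The 12w-res mice stood at 12.1, 5.71, 5.55, 4.72 and 6.19 FPM (80 to 233 reads). These groups did not overlap, and the mean was 9.34-fold higher than at 12w+dox (log2 fold change 2.58 ± 0.34, adjusted p = 5.96e-05) and 3.91-fold higher than at 6w+dox (1.74 ± 0.37, adjusted p = 0.00265). Replicate 1 stood above the rest of 12w-res.

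Fgf10 was the FGF ligand called lower. It was at 16.8, 7.88 and 13.8 FPM at 6w+dox, at 3.38, 1.05, 0.585 and 1.03 at 12w+dox, and at 2.86, 1.32, 4.23, 1.54 and 2.32 in 12w-res. Each mouse of both later groups was below each 6w+dox mouse. The mean was 8.48-fold lower at 12w+dox (log2 fold change -2.84 ± 0.421, adjusted p = 0.000743) and 5.23-fold lower in 12w-res (-2.20 ± 0.402, adjusted p = 0.000929) than at 6w+dox, and 12w-res against 12w+dox did not pass (0.64 ± 0.37, adjusted p = 0.184). Markers of the neural lobe and its pituicytes moved with Fgf10: their summed level (7 genes) was 65.3 to 150 FPM for 6w+dox, 10.7 to 28 for 12w+dox and 19 to 34.8 for 12w-res, and 5 of 7 were called lower from 6w+dox to 12w+dox (4.04% of all genes were). Markers of somatotrophs, lactotrophs and thyrotrophs (6 genes; 56900 to 92100, 1220 to 12700 and 16100 to 30500 FPM; 5 called lower) and of stem and folliculostellate cells (6 genes; 106 to 154, 67.1 to 92.5 and 87 to 112 FPM; 3 called lower) were lower at 12w+dox without overlap. The part of these markers in the result was not tested.

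Of the other 7 FGF ligands, 0 were called in any comparison. Fgf9, a secreted FGF that prefers FGFR3, was at 40.3 ± 14, 33.4 ± 8.33 and 34.7 ± 3.52 FPM in 6w+dox, 12w+dox and 12w-res (SD, n = 3, 4 and 5). Fgf11, Fgf12, Fgf13 and Fgf14 encode homologous factors that stay in the cell and bind sodium channels rather than receptors. Of these Fgf12 was higher in 12w-res (18.4 ± 1.51 FPM) than at 12w+dox (11.3 ± 2.32) and at 6w+dox (12 ± 2.21), without overlap but under the minimum fold (log2 fold change 0.69 ± 0.151, adjusted p = 0.00285, and 0.61 ± 0.165, adjusted p = 0.0116). Fgf14 was at 42 ± 5.53, 44.5 ± 3.26 and 34.2 ± 5.92 FPM, lower in 12w-res than at 12w+dox at an adjusted p of 0.0306 under the minimum fold. Fgf7 and Fgf22 stayed at 0.116 to 1.3 FPM, 2 to 29 reads.

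FGF receptors moved in opposite directions. Fgfr1, the FGF receptor of mesenchymal and endothelial cells among others, was at 39.4, 37.5 and 50.6 FPM at 6w+dox, at 23.2, 12.5, 15.1 and 17.7 at 12w+dox, and at 26.3, 30.5, 37.2, 36.1 and 44.9 in 12w-res. The 12w+dox mice were below all mice of the other groups. The mean was 2.48-fold lower at 12w+dox than at 6w+dox (log2 fold change -1.31 ± 0.209, adjusted p = 0.00112) and 2.04-fold higher in 12w-res than at 12w+dox (1.02 ± 0.184, adjusted p = 0.000724), while 12w-res and 6w+dox overlapped (-0.29 ± 0.2, adjusted p = 0.29). The gain lies just past the minimum fold. It was under it without replicate 2 or 3 of 12w+dox or replicate 3 or 5 of 12w-res (0.89 to 0.99) or with sex as a covariate (0.99), and it was 0.38 (adjusted p = 0.158) with library totals.

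Fgfr2, whose splice forms serve epithelial and mesenchymal cells, went the other way. Its levels were 42.8, 42.3 and 43.8 FPM at 6w+dox, 41.3, 65.7, 63.5 and 60.4 at 12w+dox, and 18, 20.6, 21.4, 17.5 and 17.2 in 12w-res. All restored mice were below all mice on dox. The mean of 12w-res was 3.05-fold lower than that of 12w+dox (log2 fold change -1.56 ± 0.134, adjusted p = 1.07e-06) and 2.27-fold lower than that of 6w+dox (-1.17 ± 0.146, adjusted p = 4.5e-05). Fgfr4, the FGF receptor of hepatocytes and of many pituitary tumors, was at 16.9, 12.5 and 13.7 FPM, then 16, 23.6, 28.7 and 33.1, and in 12w-res 9.41, 10.8, 8.74, 9.51 and 9.12. It was 2.67-fold lower in 12w-res than at 12w+dox (-1.32 ± 0.183, adjusted p = 8.8e-05), and past the p threshold but under the minimum fold from 6w+dox to 12w+dox (0.76 ± 0.208, adjusted p = 0.0192) and in 12w-res against 6w+dox (-0.56 ± 0.199, adjusted p = 0.0424).

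Fgfrl1, a receptor-like protein without a kinase domain, was at 4.19 ± 0.552 FPM in the 6w+dox group, 2.05 ± 0.842 in the 12w+dox group and 4.37 ± 0.66 after restoration, with log2 fold changes of -0.94 ± 0.257 (adjusted p = 0.0199) and 0.99 ± 0.226 (adjusted p = 0.0036), both under the minimum fold. Fgfr3 was at 0.757 to 4.05 FPM (13 to 89 reads) and passed in no comparison. Per kilobase of the longest transcript, Fgfr2 was the most abundant FGF receptor at 12w+dox (13 FPM per kb, against 7.63 for Fgfr4 and 3.4 for Fgfr1), whereas in 12w-res Fgfr1 was first (6.94, against 4.28 and 2.86).

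**Figure D2:**
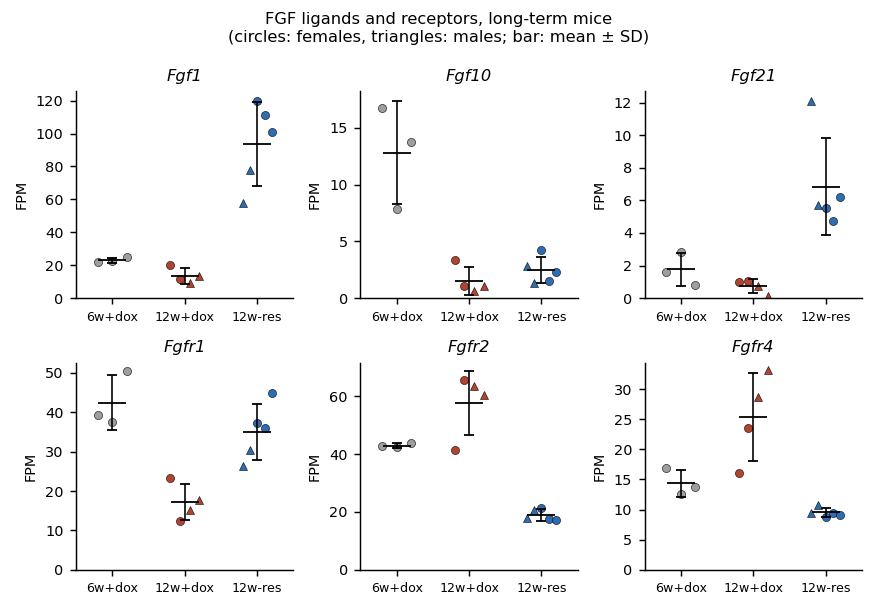
FPM (y axis) of 3 FGF ligands and 3 FGF receptors in each long-term mouse by group (x axis; circles females, triangles males; bar with mean ± SD). Fgf1 and Fgf21 are highest in 12w-res, Fgf10 is highest at 6w+dox, the 12w+dox mice lie lowest for Fgfr1 (12.5 to 23.2), and the 12w-res mice lie lowest for Fgfr2 (17.2 to 21.4) and Fgfr4 (8.74 to 10.8).

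IGF binding proteins gave 4 calls of 7 in 12w-res against 12w+dox with size factors, all higher (6.24% of all genes were called higher). Their median log2 fold change was 1.48, and library totals gave 2 calls. With library totals Igfbp3 and Igfbp7 remained called. Igfbp3, the main carrier of IGFs in blood, was at 97.5, 129 and 96.9 FPM at 6w+dox, at 89.8, 55, 65.7 and 81.6 at 12w+dox, and at 238, 279, 288, 359 and 316 in 12w-res. No group overlapped another. The mean was 4.05-fold higher in 12w-res than at 12w+dox (log2 fold change 2.02 ± 0.157, adjusted p = 3.75e-07) and 2.75-fold higher than at 6w+dox (1.45 ± 0.17, adjusted p = 2.53e-05), and the loss to 12w+dox passed under the minimum fold (-0.57 ± 0.178, adjusted p = 0.0345).

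Igfbp7, a matrix-bound relative that is abundant in vessels, was at 89.2, 92.9 and 54.1 FPM, then at 69.5, 37.2, 30.1 and 51.4, and in 12w-res at 175, 123, 165, 157 and 161. The restored mice were above all others. The mean rose 3.32-fold against 12w+dox (log2 fold change 1.78 ± 0.219, adjusted p = 3.36e-05) and 1.99-fold against 6w+dox (1.02 ± 0.239, adjusted p = 0.00502). This last value was under the minimum fold without 6w+dox replicate 3 (0.77), without 12w-res replicate 1 (0.97) or 3 (0.99), in DESeq2 (0.99) and with library totals (0.69).

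Igfbp5, which binds to extracellular matrix, was lowest at 12w+dox. It was at 249, 344 and 387 FPM at 6w+dox, at 237, 69.2, 96.6 and 172 at 12w+dox, and at 555, 350, 366, 313 and 320 in 12w-res. The 12w+dox mice were below the rest, replicate 1 by a small margin. Its mean was 2.27-fold lower at 12w+dox than at 6w+dox (log2 fold change -1.32 ± 0.337, adjusted p = 0.0142, and adjusted p = 0.0589 without 6w+dox replicate 2) and 2.65-fold higher in 12w-res than at 12w+dox (1.53 ± 0.296, adjusted p = 0.00123), with no difference detected between 12w-res and 6w+dox (0.21 ± 0.322, adjusted p = 0.647). With library totals the loss was -0.99 (adjusted p = 0.0635) and the gain 0.87 (adjusted p = 0.0341).

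Igfbp6, which prefers IGF2, was low, at 0.314 to 1.94 FPM (9 to 63 reads) at 12w+dox and 2.6 to 5.28 (50 to 116 reads) in 12w-res, without overlap (3.35-fold, log2 fold change 1.48 ± 0.317, adjusted p = 0.00243). Igfbp4, an inhibitor of IGF action, was at 81.4 ± 29.9, 44.8 ± 13.3 and 71.5 ± 6.71 FPM and passed under the minimum fold in both directions (-0.84 ± 0.223, adjusted p = 0.017, and 0.71 ± 0.196, adjusted p = 0.0113). Igfbp2 did not pass in any comparison (22.9 ± 8.85, 22.4 ± 12 and 20.3 ± 4.38 FPM). Igfals, which joins the carrier complex in blood, was at 0 to 34 reads.

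Of the ligand and receptors of the system, 1 of 4 was called, Igf1 in 12w-res against 12w+dox (6.24% of all genes were called higher). Igf1, the ligand, was at 11.7, 11.1 and 8.57 FPM at 6w+dox, at 14.9, 8.45, 5.11 and 7.57 at 12w+dox, and at 12.8, 13.5, 31.4, 17.6 and 18.8 in 12w-res. 12w+dox and 12w-res overlapped through replicate 1 of 12w+dox, and the call (2.09-fold, log2 fold change 1.05 ± 0.284, adjusted p = 0.0102) was under the minimum fold without 12w+dox replicate 3 (0.82) or 12w-res replicate 3 (0.85), under it with sex as a covariate (0.97), and at 1.00 without 12w+dox replicate 4. With library totals the value for Igf1 was 0.42 (adjusted p = 0.206). Igf2r, which takes up IGF2 for degradation, was 53.3 ± 8.22 FPM in 12w-res, 31.7 ± 6.4 at 12w+dox and 32.1 ± 8.6 at 6w+dox, past the p threshold against both and under the minimum fold (0.75 ± 0.178, adjusted p = 0.0045, and 0.74 ± 0.194, adjusted p = 0.00957). For Igf1r (90.2 ± 1.34, 95.4 ± 28.7 and 86.8 ± 6.77 FPM) and Insr (56.7 ± 5.33, 49.3 ± 9.44 and 52.9 ± 2.15), the receptors of IGF1 and insulin, no difference was detected, and their log2 fold changes lay between -0.22 and 0.12 with SE from 0.124 to 0.188.

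**Figure D3:**
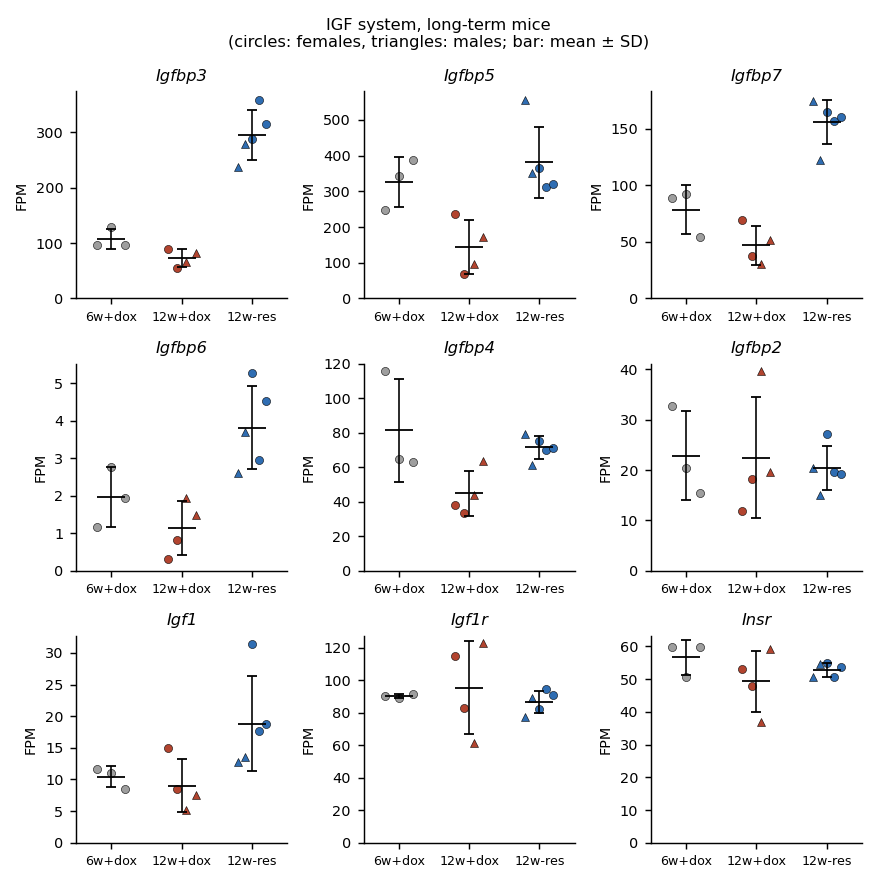
FPM (y axis) of 9 IGF system genes in each long-term mouse by group (x axis; circles females, triangles males; bar with mean ± SD). In 12w-res Igfbp3 (238 to 359) and Igfbp7 (123 to 175) lie above every other mouse, Igfbp5 is low at 12w+dox, and Igf1r and Insr overlap in all groups.

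The summed markers of vascular, stromal and macrophage cells were higher in 12w-res than at 12w+dox, as were the called binding proteins. The summed level of 10 endothelial genes was 216 to 274 FPM for 6w+dox, 78.2 to 153 for 12w+dox and 234 to 319 for 12w-res. For 8 pericyte and smooth muscle genes it was 173 to 224, 137 to 321 and 540 to 656, and for 6 fibroblast genes 273 to 296, 80.3 to 308 and 495 to 1150. For 8 macrophage genes it was 103 to 150, 152 to 204 and 249 to 503. In 12w-res against 12w+dox, 8 of 10 endothelial, 8 of 8 pericyte and smooth muscle and 6 of 6 fibroblast genes were called higher. So was 1 of 8 macrophage genes, where 6.24% of all genes were. Against 6w+dox the counts called higher in 12w-res were 1, 5, 2 and 2 in the same order (5.81% of all genes). None of the listed markers was at 0 in all mice, and their part in the members' changes was not tested. In whole pituitaries, fewer cells of a type and less RNA per cell cannot be told apart.

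Each call of an ERBB receptor was lost when single mice were left out or when sex was a covariate. Erbb3, a receptor with little kinase activity of its own that signals with ERBB2, was at 0.99, 4.14 and 7.41 FPM at 6w+dox, at 11, 8.6, 6.9 and 9.13 at 12w+dox, and at 5.3, 6.66, 5.28, 5.31 and 7.02 in 12w-res. Its call as higher at 12w+dox (2.13-fold, log2 fold change 1.29 ± 0.399, adjusted p = 0.0327) came with overlapping groups. It was lost without replicate 1, 2 or 4 of 12w+dox or replicate 1 or 2 of 6w+dox (adjusted p of 0.0607 to 0.111), and the log2 fold change was 0.62 without 6w+dox replicate 1, the lowest mouse. Erbb4, a neuregulin receptor, was at 5.07, 7.3 and 10.2 FPM, then at 7.75, 1.78, 1.48 and 2.26, and in 12w-res at 3.48, 5.34, 6.42, 5.67 and 5.8. At 12w+dox only replicate 1 reached the range of 6w+dox (2.27-fold lower mean, -1.28 ± 0.405, adjusted p = 0.036), and the call was lost without replicate 2, 3 or 4 of 12w+dox or replicate 2 or 3 of 6w+dox (adjusted p of 0.0814 to 0.103). With sex as a covariate, since 6w+dox held females only, neither Erbb3 (1.34, adjusted p = 0.0572) nor Erbb4 (-0.97, adjusted p = 0.116) passed. With library totals the value for Erbb4 was -1.02 (adjusted p = 0.0987).

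Erbb2, the receptor without a ligand of its own, was at 4.95, 3.65 and 4.14 FPM, at 2.93, 0.845, 1.08 and 1.7, and at 3.64, 1.69, 5.64, 4.31 and 3.7. It was called lower at 12w+dox (-1.24 ± 0.351, adjusted p = 0.0226) and higher in 12w-res (1.03 ± 0.308, adjusted p = 0.0173). The first call was lost without replicate 2 or 3 of 12w+dox or replicate 1 or 2 of 6w+dox (adjusted p of 0.0523 to 0.0766), and the second without replicate 2 or 3 of 12w+dox or replicate 3 or 4 of 12w-res (log2 fold change of 0.84 to 0.97). With sex as a covariate the values were -0.99 (adjusted p = 0.0758) and 0.98 (adjusted p = 0.0189). With library totals they were -0.99 (adjusted p = 0.052) and 0.49 (adjusted p = 0.184). Egfr lay at 7.05 to 14.7 FPM and passed in no comparison. Among the ligands, Nrg3 was higher at 12w+dox (9.42 ± 1.62 FPM) than at 6w+dox (5.68 ± 0.232) under the minimum fold (0.67 ± 0.201, adjusted p = 0.0287), as it was in 12w-res (8.52 FPM; 0.52 ± 0.192, adjusted p = 0.0485). Nrg1 (6.54 ± 0.827, 5.64 ± 2.34 and 4.89 ± 0.809 FPM), Nrg2, Egf and Nrg4 did not pass.

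Of the VEGF genes, Vegfc was called lower with tumor growth and Flt4 was called higher after restoration. Vegfc was at 5.71, 5.83 and 6.75 FPM at 6w+dox, at 4.99, 1.22, 1.76 and 1.73 at 12w+dox, and at 6.14, 4.49, 4.46, 3.48 and 2.43 in 12w-res. Its mean was 2.51-fold lower at 12w+dox than at 6w+dox (log2 fold change -1.32 ± 0.351, adjusted p = 0.0167, and 0.0546 without 6w+dox replicate 2). Flt4, its receptor VEGFR3, was at 6.87, 8.91 and 10.2 FPM, at 7.22, 3.03, 2.65 and 6.31, and at 13.3, 10.9, 12.4, 10.9 and 10.2, and was 2.4-fold higher in 12w-res than at 12w+dox (1.28 ± 0.25, adjusted p = 0.00126). With library totals the value for Flt4 was 0.67 (adjusted p = 0.0578). Vegfb was lower in 12w-res (21.2 ± 1.84 FPM) than at 12w+dox (29.2 ± 2.26) and 6w+dox (36.4 ± 5.79) without overlap, under the minimum fold (-0.46 ± 0.116, adjusted p = 0.00709, and -0.76 ± 0.127, adjusted p = 0.000455). Vegfa, the main angiogenic ligand, was at 27.3, 33.8 and 66.8 FPM, at 42.5, 69.3, 122 and 63.8, and at 57.8, 64, 54.3, 65.3 and 72.3, and did not pass (0.80 ± 0.309, adjusted p = 0.0762 from 6w+dox to 12w+dox). Pgf lay at 1.71 to 3.91 FPM and did not pass.

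PDGF ligands differed by member. Pdgfb, which endothelial cells use to recruit pericytes, was at 8.85, 7.79 and 7.91 FPM at 6w+dox, at 4.54, 2.68, 2.4 and 6.31 at 12w+dox, and at 10.4, 11.9, 12.1, 9.21 and 10.2 in 12w-res. No group overlapped another (log2 fold change -1.04 ± 0.255, adjusted p = 0.0116, from 6w+dox to 12w+dox, and 1.41 ± 0.224, adjusted p = 0.000282, in 12w-res against 12w+dox). The first value was under the minimum fold without replicate 2 or 3 of 12w+dox or replicate 1 of 6w+dox (-0.98 to -0.86). With library totals the loss of Pdgfb was -0.75 (adjusted p = 0.0675) and its gain 0.8 (adjusted p = 0.0141). Pdgfc, a ligand of PDGFRA, was at 1.16, 0.624 and 0.869 FPM (14 to 21 reads), then at 1.71, 1.2, 1.45 and 1.95, and in 12w-res at 3.28, 2.8, 4.6, 4.07 and 5.75 (53 to 104 reads). It rose 2.6-fold against 12w+dox (1.12 ± 0.219, adjusted p = 0.00129) and 4.63-fold against 6w+dox (1.71 ± 0.239, adjusted p = 0.000112). The value against 12w+dox was under the minimum fold with library totals (0.58, adjusted p = 0.0395) and with a pseudocount of 1 (0.96). Against 6w+dox the value of Pdgfc with library totals was 1.43 (adjusted p = 0.000582). Pdgfa was higher at 12w+dox (14.4 ± 3.06 FPM) than at 6w+dox (8.71 ± 0.988), without overlap and under the minimum fold (0.67 ± 0.204, adjusted p = 0.0303), and Pdgfd (5.83 to 11.5 FPM) did not pass.

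**Figure D4:**
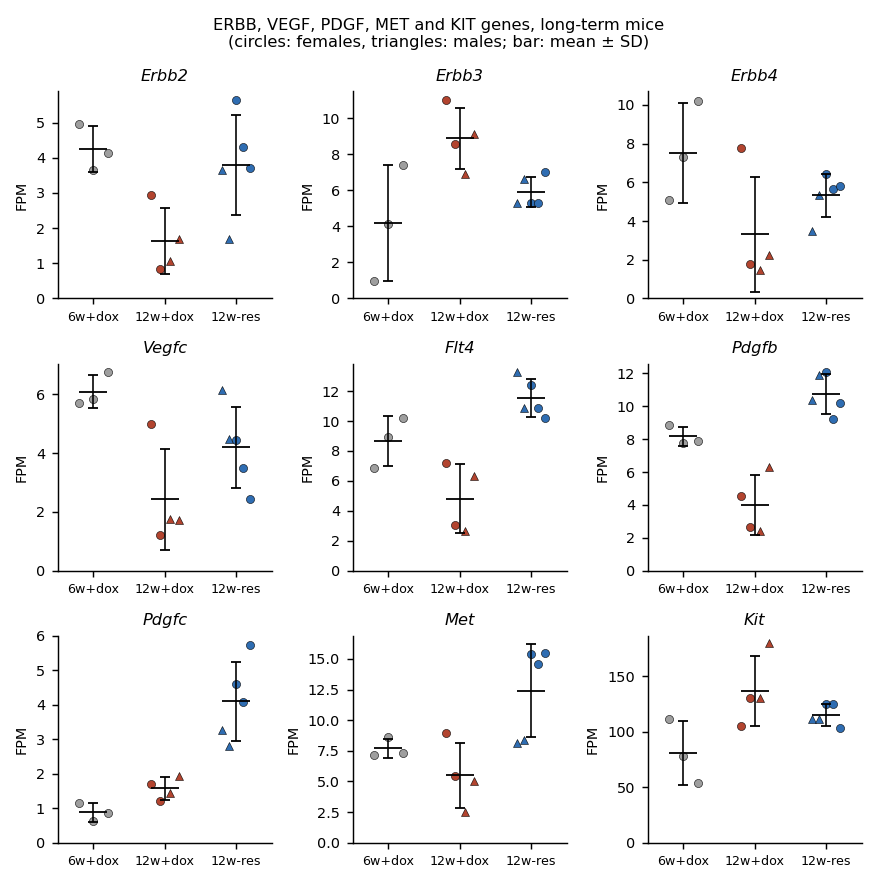
FPM (y axis) of 9 ERBB, VEGF, PDGF, MET and KIT genes in each long-term mouse by group (x axis; circles females, triangles males; bar with mean ± SD). Pdgfc is highest in 12w-res (2.8 to 5.75), Pdgfb and Flt4 have their lowest mean at 12w+dox, and replicate 1 of 12w+dox stands above the rest of its group for Erbb4 (7.75) and Vegfc (4.99).

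Kit, the receptor of stem cell factor, was per kilobase of transcript the most abundant receptor kinase among the members in each group (15.4 FPM per kb for 6w+dox, 26 for 12w+dox and 21.9 for 12w-res). In FPM it was at 111, 78 and 53.9, at 105, 130, 130 and 180, and at 111, 111, 125, 125 and 103, higher at 12w+dox than at 6w+dox under the minimum fold (0.78 ± 0.21, adjusted p = 0.0178) and with overlap, as in 12w-res (0.56 ± 0.201, adjusted p = 0.0437). Kitl, its ligand, was at 7.97 ± 2.71, 5.33 ± 2.17 and 9.9 ± 2.05 FPM and rose in 12w-res against 12w+dox under the minimum fold (0.90 ± 0.265, adjusted p = 0.0155). Met, the receptor of hepatocyte growth factor, was at 7.16, 8.6 and 7.33 FPM, at 8.93, 5.48, 2.49 and 5.05, and at 8.11, 8.4, 15.4, 14.6 and 15.5. The low 12w-res mice, replicates 1 and 2, were the males of that group. Met was 2.26-fold higher in 12w-res than at 12w+dox (1.17 ± 0.293, adjusted p = 0.00658), with overlap, and was under the minimum fold without 12w+dox replicate 3 (0.87). With library totals the value for Met was 0.55 (adjusted p = 0.119). Hgf itself stayed at 6 to 30 reads and did not pass.

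Among the neurotrophin receptors, Ntrk3 was at 13.9, 15.5 and 37.5 FPM, at 10.4, 18.9, 13 and 10.6, and at 17.3, 34.1, 25.5, 31.4 and 38.8, 2.23-fold higher in 12w-res than at 12w+dox (1.12 ± 0.292, adjusted p = 0.00833), with overlap. With library totals the value for Ntrk3 was 0.47 (adjusted p = 0.236). Ntrk2 was at 64.6 ± 15.7, 40.9 ± 12.4 and 56.3 ± 6.23 FPM, under the minimum fold in both directions (-0.67 ± 0.206, adjusted p = 0.0316, and 0.50 ± 0.181, adjusted p = 0.0441). Ret, the receptor of the GDNF family, lay at 2 to 38 reads and did not pass.

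Of the 6 genes taken in by name and set apart, Igf2bp2, an RNA-binding protein of growing tissue, was lower at 12w+dox (1.47, 0.816, 0.4 and 1.01 FPM, 13 to 42 reads) than at 6w+dox (1.69, 4.01 and 4.51), a log2 fold change of -1.42 ± 0.345 (adjusted p = 0.011) that did not pass without 6w+dox replicate 2 (adjusted p = 0.0584). Fgfr1op, a centrosome protein, was lower in 12w-res (6.39 ± 1.11 FPM) than at 12w+dox (10.8 ± 2.14) and 6w+dox (10.9 ± 3.99) under the minimum fold (-0.71 ± 0.205, adjusted p = 0.0145, and -0.69 ± 0.223, adjusted p = 0.0284). Fgfr1op2, Igf2bp3, Igfbpl1 and Igflr1 did not pass in any comparison.

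Exons of Erbb2 and Igfbp7 overlap those of Mien1 and Polr2b on the opposite strand in GENCODE, and an annotated Fgfr2 exon overlaps Ctbp2 on the same strand. Whether strand was used in counting is not given in the sources used here, so reads of such pairs may not be told apart.

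Other genes of the pathway were read from 4 lists. Of 34 other receptor tyrosine kinases, 2 were called higher and 5 lower from 6w+dox to 12w+dox, 11 higher and 1 lower in 12w-res against 12w+dox, and 4 higher in 12w-res against 6w+dox. These are 5.88% and 14.7% (3.15% and 4.04% of all genes), 32.4% and 2.94% (6.24% and 5.04%), and 11.8% (5.81%). Insrr, a receptor that senses alkaline pH, had means of 1.56 FPM for 6w+dox, 17 for 12w+dox and 1.08 for 12w-res (log2 fold changes 2.82 ± 0.552, adjusted p = 0.0037, and -3.19 ± 0.485, adjusted p = 0.000196). Pdgfrb, the receptor of PDGFB on pericytes, rose in 12w-res (54.7 FPM) against 12w+dox (18.5; 1.62 ± 0.212, adjusted p = 5.67e-05), and Pdgfra, the receptor of PDGFC on fibroblasts, was at 4.03, 1.05 and 3.73 FPM (-1.59 ± 0.355, adjusted p = 0.00725, and 1.43 ± 0.312, adjusted p = 0.00276). Both are also in the stromal marker lists.

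The 24 other ligands and co-receptors tested had 2 higher and 1 lower from 6w+dox to 12w+dox, 3 higher in 12w-res against 12w+dox and 6 higher in 12w-res against 6w+dox. These are 8.33% and 4.17% (3.15% and 4.04% of all genes), 12.5% (6.24%) and 25% (5.81%). Gfra1, the co-receptor of RET for GDNF, was at a mean of 27.5 FPM at 6w+dox and rose at 12w+dox (72.3; log2 fold change 1.41 ± 0.177, adjusted p = 0.000293) and in 12w-res (83.2; 1.61 ± 0.169, adjusted p = 9.43e-06). Angpt2, a ligand that loosens vessels, rose likewise (14.7, 42.6 and 37.9 FPM; 1.56 ± 0.281, adjusted p = 0.00228, and 1.41 ± 0.268, adjusted p = 0.0012).

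Downstream of the receptors, 49 cascade genes gave 2 calls from 6w+dox to 12w+dox (Ksr2 and Irs2 higher) and 1 in each comparison of 12w-res, the adaptor Shc4 (7.35 FPM against 1.71 for 12w+dox and 1.88 for 6w+dox; 1.78 ± 0.278, adjusted p = 0.000243, and 1.66 ± 0.303, adjusted p = 0.00089). The shares called higher, 4.08%, 2.04% and 2.04%, are near or below those of all genes (3.15%, 6.24% and 5.81%). Of 24 feedback and response genes, 3 rose and 2 fell from 6w+dox to 12w+dox (12.5% and 8.33%; 3.15% and 4.04% of all genes), 2 fell in 12w-res against 12w+dox (8.33%; 5.04% of all genes) and 2 rose in 12w-res against 6w+dox (8.33%; 5.81% of all genes), Spred3 and Etv4. Dusp4, a phosphatase of MAP kinases, rose from 1.85 to 7.95 FPM (1.87 ± 0.345, adjusted p = 0.00264) and was lower in 12w-res (3.66 FPM) than at 12w+dox (-1.01 ± 0.303, adjusted p = 0.0172). Ccnd1, the cyclin that growth factors induce, fell from 42.8 to 15.3 FPM (-1.49 ± 0.201, adjusted p = 0.000444). The other call in 12w-res against 12w+dox was Il17rd, an FGF signalling antagonist, at 30.6 FPM for 12w+dox and 14.5 for 12w-res (-1.02 ± 0.176, adjusted p = 0.000528).

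A sex difference in the change from 12w+dox to 12w-res was tested as an interaction in the 9 mice of those groups. None of the 58 members passed (smallest adjusted p = 0.999 in limma, 5 at an unadjusted p under 0.05), where 13 of 15108 genes did (0.086%).

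In the first days without dox no member was called in limma. After 1 day 10 of 49 members were at an unadjusted p under 0.05 (20.4%; 13.1% of all genes) with 0.043% of all genes called, after 3 days 9 (18.4%; 16.6% of all genes) with 0.129% called, and after 5 days 13 (26.5%; 13.5% of all genes) with 0.193% called. edgeR on the recovered reads called none, and DESeq2 called 2 at 5 days. The 16w+dox group and the 3d -dox group were male, and the 1d and 5d groups were female, so sex and time off dox cannot be told apart at 1 and 5 days. Replicate 2 of 16w+dox also differed from the other 2 of its group: Fgfr1 was at 33.1 FPM in it and at 6.31 and 6.89 in them, Fgfr2 at 7.7 against 22.8 and 22.2, and Ret at 1.6 against 0.0499 and 0.383. Without that mouse, 5, 5 and 7 members were at an unadjusted p under 0.05.

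Nrg2, a neuregulin, had the smallest p. It was at 0.424, 0.321 and 0.664 FPM at 16w+dox (12 to 26 reads) and at 1.54, 0.935 and 1.89 after 5 days (36 to 67 reads), with the 1d and 3d mice between 0.35 and 1.05. The 5d and 16w+dox mice did not overlap (3.1-fold, log2 fold change 1.00 ± 0.236, adjusted p = 0.0803 in limma and 0.0165 in DESeq2). Flt4 was at 1.85, 3.88 and 2.02 FPM at 16w+dox and at 0.785, 1.09 and 0.788 after 5 days (-1.10 ± 0.303, adjusted p = 0.129 in limma and 0.0147 in DESeq2). Igfbp7 was at 7.66, 11.7 and 7.5 FPM at 16w+dox, at 5.59, 5.16, 5.63 and 4.19 after 1 day, at 10.3, 5.26 and 7.43 after 3 days, and at 4.18, 5.87 and 4.14 after 5 days (adjusted p = 0.151 at 1 day and 0.104 at 5 days in limma). In DESeq2 Igfbp7 passed the p threshold at 1 day (-0.80, adjusted p = 0.0334) and 5 days (-0.92, adjusted p = 0.0159), under the minimum fold. Low Igfbp7 and Flt4 came in the female groups, as did low endothelial markers (10 genes, summed 27.4 to 47.9 FPM at 16w+dox, 15.9 to 19.7 after 1 day, 25.7 to 48.9 after 3 days and 12.2 to 16.9 after 5 days). Pericyte and smooth muscle markers (8 genes) summed to 59.1 to 102, 30.1 to 44.8, 52.1 to 79 and 26.1 to 41.3 FPM, fibroblast markers (6 genes) to 69 to 79.8, 25.5 to 44.1, 44.8 to 107 and 25.3 to 51.9, and gonadotroph markers (5 genes) to 17.2 to 84.6, 1.56 to 6.31, 37.6 to 128 and 2.8 to 4.3. The part of these markers in the result was not tested.

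After 3 days, the comparison within males, the smallest p-values among the members were those of Ntrk3 (5.54, 7.62 and 5.49 FPM against 2.85, 4.81 and 3.89; log2 fold change -0.64 ± 0.199, adjusted p = 0.151), Met (2.77, 3.66 and 2.58 against 1.96, 1.08 and 1.52; -0.81 ± 0.263, adjusted p = 0.159) and Nrg1 (-0.83 ± 0.275, adjusted p = 0.165). Of the members called in the long-term comparisons of 12w-res, 0 were called here in limma, and DESeq2 called Flt4 lower at 5 days. Fgf1 was at 3.17, 4.01 and 3.5 FPM at 16w+dox and at 4.54, 2.99 and 4.73 after 5 days. Fgfr2 was at 22.8, 7.7 and 22.2 FPM at 16w+dox, at 27.7, 23.4, 32.8 and 33.3 after 1 day, at 24.1, 26.9 and 23.7 after 3 days, and at 18.4, 21.1 and 16.3 after 5 days. After 1 day Kitl, the KIT ligand, was at 0.696 to 1.08 FPM in 4 mice, below the 1.47 to 1.74 of 16w+dox (-0.62 ± 0.207, adjusted p = 0.219). The difference of Fgfr2 at 1 day (0.86 ± 0.271, adjusted p = 0.199) was 0.36 without 16w+dox replicate 2. Levels of the 2 experiments were not compared, since the libraries were made differently.

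**Figure D5:**
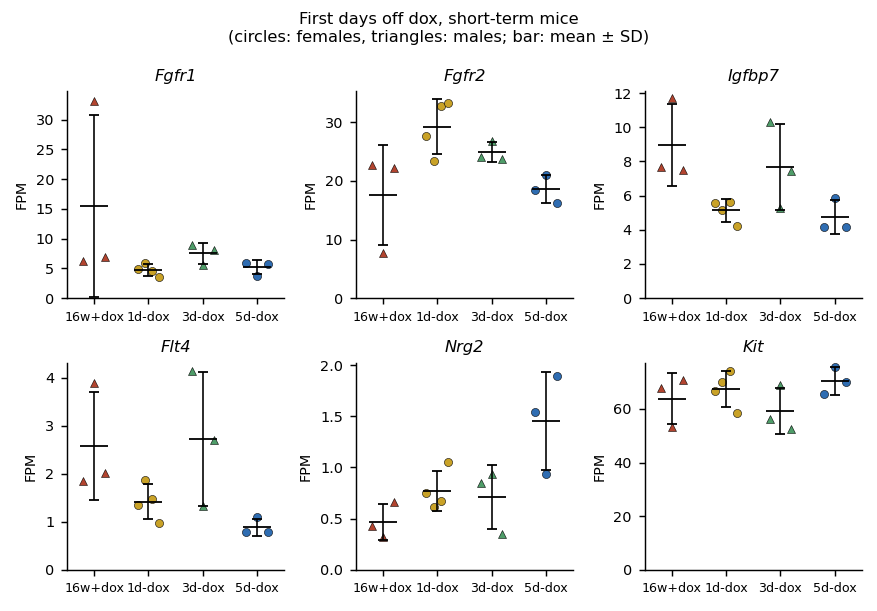
FPM (y axis) of 6 members in each short-term mouse by group (x axis; circles females, triangles males; bar with mean ± SD). No member was called in limma (DESeq2 called Nrg2 and Flt4 at 5 days); replicate 2 of 16w+dox stands apart for Fgfr1 (33.1) and Fgfr2 (7.7), and Igfbp7 and Flt4 are lower in the female groups.

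For 3 receptors with many reads the group means lay close together in these days. Igf1r stood at 82.7 ± 1.06 FPM (SD, n = 3) before withdrawal and at 78.8 ± 4.66 (n = 4), 86.1 ± 2.67 (n = 3) and 77.3 ± 3.52 (n = 3) after 1, 3 and 5 days. Insr was at 40 ± 0.927, 37.4 ± 1.46, 38.2 ± 1.95 and 35.9 ± 0.526 FPM, and Kit at 63.8 ± 9.43, 67.3 ± 6.59, 59.3 ± 8.63 and 70.4 ± 5.22. The female 5d mice were below the male 16w+dox mice without overlap for Igf1r (74 to 81 against 81.6 to 83.6) and Insr (35.6 to 36.5 against 39.2 to 41). For Insr the log2 fold change was -0.15 (unadjusted p = 0.0265 in limma, not called), and for Kit these groups overlapped. Of the named members with few reads, Fgf21, Hgf, Fgfr3 and Vegfc held at most 39 reads in any short-term mouse, so that small changes were not detectable at this depth.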

How the data were processed

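RNA-seq was made from whole pituitaries of 25 shRb mice, 12 in the long-term and 13 in the short-term experiment. The authors aligned reads to mm10 with STAR and assigned them to RefSeq genes (counter and strand setting not given in the sources used here). They deposited a signal per gene and mouse, FPM, which is the read count scaled by a DESeq2 size factor of the library. Dividing by the value of 1 read returned whole reads for 100% of values in both tables (tolerance 0.1 read), and 4 lines that name no gene were left out of the short-term table and 2 blank lines out of the long-term table.

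A gene was tested if, in any group, over 50% of mice had 10 reads or more. The test was made on log2(FPM + 0.5) with limma 3.58.1 (R 4.3.3; trended prior), all mice of an experiment in 1 fit, with Benjamini-Hochberg adjustment over all genes tested. edgeR 4.0.16 (quasi-likelihood) and DESeq2 1.42.0 on the recovered reads, other pseudocounts (0.1 and 1), other filters, library totals, other fits and leaving out each mouse were the alternatives. The script was tested on simulated data with known changes. Promoter windows came from RefSeq and transcript lengths and exon overlaps from GENCODE. Replicates were separate mice, and replicate pairs differed by more than counting noise (chi-square per degree of freedom of 4.01 or more). Since the deposited values are a scaled signal, limma was the main test and count tests were alternatives.

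The members and the lists of other genes were chosen with earlier results of these data known. Members named by rule were 20 set receptors and ligands, every member called in a long-term comparison and, where a short-term comparison had no call, the 3 of smallest p. Of the lists, up to 4 called genes of largest change were named. Further members past the p threshold alone, and those given only by range, were named after their values were seen. The values of 1 member and of 1 listed gene are not reported here.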

Additional observations from a re-analysis of the deposited data

Results flagged for a closer look

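Of 102 sets of values of a named member in a group of 4 or 5 mice, 7 held a mouse far from the others of its group, and chance gives about 1 in 20. In 12w+dox replicate 1, a female, Erbb4 was at 7.75 FPM (1.48 to 2.26 in the other mice), Vegfc at 4.99 FPM (1.22 to 1.76) and Fgf10 at 3.38 FPM (0.585 to 1.05), in each case toward the level of 6w+dox. In 12w-res replicate 1, a male, Fgf21 was at 12.1 FPM (4.72 to 6.19 in the others) and Igfbp5 at 555 FPM (313 to 366). After 1 day without dox, Erbb3 was at 3.48 FPM in replicate 2 (4.46 to 4.65 in the others) and Hgf at 0.374 FPM in replicate 3 (0.164 to 0.183), the latter a matter of few reads. Reasons for these values were not tested.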

How the results depend on the processing

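For 12w+dox against 6w+dox, the 1 member called higher became 2 with DESeq2 or a pseudocount of 0.1, 4 with library totals, 0 with only the groups compared, with the replicate block or with sex as a covariate, 5 with no minimum fold, and 0 to 2 when a mouse was left out. The 8 called lower became 3 with library totals and 15 with no minimum fold, and leaving out a mouse gave between 3 (without 6w+dox replicate 2) and 11 (without 12w+dox replicate 1), with 5 without 12w+dox replicate 2 or 3. For 12w-res against 12w+dox, library totals gave 4 higher and 9 lower in place of 14 and 2, and no minimum fold gave 5 lower. When a mouse was left out the counts were 10 to 19 and 2 to 3. For 12w-res against 6w+dox, the counts of 5 and 2 became 9 and 5 with no minimum fold, 4 were lower with library totals, and leaving out a mouse gave 4 to 7 and 2 to 3. DESeq2 called 2 members after 5 days. No direction of a named member's called change turned under these alternatives. Of the values recomputed for named members, 641 long-term values kept their side of the p threshold and 113 lost it, and in the short-term experiment 134 kept it and 4 passed it. The causes were not tested.

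Replicate numbers did not pair the mice. Deviations of same-numbered mice correlated at -0.165 to 0.237 over 10 long-term pairs and -0.208 to 0.168 over 18 short-term pairs. With the replicate block 0 members were called higher and 7 lower from 6w+dox to 12w+dox, 13 and 2 in 12w-res against 12w+dox, 4 and 2 in 12w-res against 6w+dox, and 0 in the short-term comparisons. Groups of 3 to 5 mice and low read numbers (Fgf21, Igfbp6, Pdgfc, Nrg2) limit what could be detected.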
